A study of Homo sapiens with 6 samples.

Results

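Cajal-Retzius cells are early-born neurons that lie at the surface of the developing cortex and secrete reelin. The genes described here are 8 that mark them by textbook knowledge, taken by symbol from the deposited table, which lists 18056 genes: RELN, CALB2, EBF2, EBF3, TP73, LHX1, LHX5 and NHLH2. RNA sequencing was done on forebrain organoids grown with a dorsal forebrain protocol from DYR0100, an established human induced pluripotent stem cell line whose genotype is labelled WT. The vehicle group (3 libraries) received vehicle and the Aβ42 group (3 libraries) received 5 µM Aβ42, the longer of the common amyloid-β peptides, which readily forms aggregates, each for 6 days and all in the batch labelled Batch1. Both groups come from the same line, and the number of organoids behind a library and their age are not given in the sources used here.

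In the embryonic brain, Cajal-Retzius cells arise at the edges of the cortical primordium, chiefly the cortical hem, a strip of signalling tissue that releases Wnt and Bmp proteins, and spread under the meninges, which attract them with the chemokine CXCL12. The reelin they secrete binds the receptors VLDLR and LRP8 (also called ApoER2) on migrating neurons, leads to phosphorylation of the adaptor DAB1 by Src-family kinases, and helps set the order of the cortical layers. Members of the list are not exclusive to this cell type: RELN and CALB2 are also made by interneurons, TP73 by multiciliated cells, and the LHX and EBF factors by other neurons and by mesenchyme.

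The libraries held 16465390 to 16742958 estimated counts each. Levels are given as deposited TPM, a unit scaled for gene length so that genes can be compared, and as CPM, counts scaled by library size alone, for comparing libraries within a gene. The dorsal forebrain label was met by its markers: NEUROD6, a cortical excitatory neuron factor, was at 646.9 to 720.2 TPM, and TBR1, of deep-layer cortical neurons, at 131.6 to 162.5 TPM. Of the ventral forebrain marker NKX2-1, 5 of 6 libraries listed 0 TPM. In these bulk libraries, fewer cells of a type and less RNA per cell cannot be told apart.

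The 8 genes did not behave as the signature of an abundant cell type. CALB2 and RELN were readable in every library, EBF3 and TP73 lay under 1 TPM in all 6, and LHX5, EBF2, LHX1 and NHLH2 had between 0 and 5 counts in a library. By mean TPM the order was CALB2 (15.6), RELN (2.84), EBF3 (0.705), TP73 (0.592), LHX5 (0.158), EBF2 (0.07), LHX1 (0.055) and NHLH2 (0.045). CALB2 exceeded RELN, RELN exceeded EBF3, and TP73 exceeded LHX5 in each of the 6 libraries, while the ranges of EBF3 and TP73 overlapped, and so did those of neighbours among the last 4. Against all listed genes, CALB2 stood at the 50.8th percentile of mean TPM, RELN at the 32.1st, and the 4 lowest between the 9.60th and the 15.9th. Since 4 of the 6 transcription factor genes in the set were at the edge of detection, the name of the cell type was not borne out by these levels, and the set is called here the 8 listed genes.

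**Figure D1:**
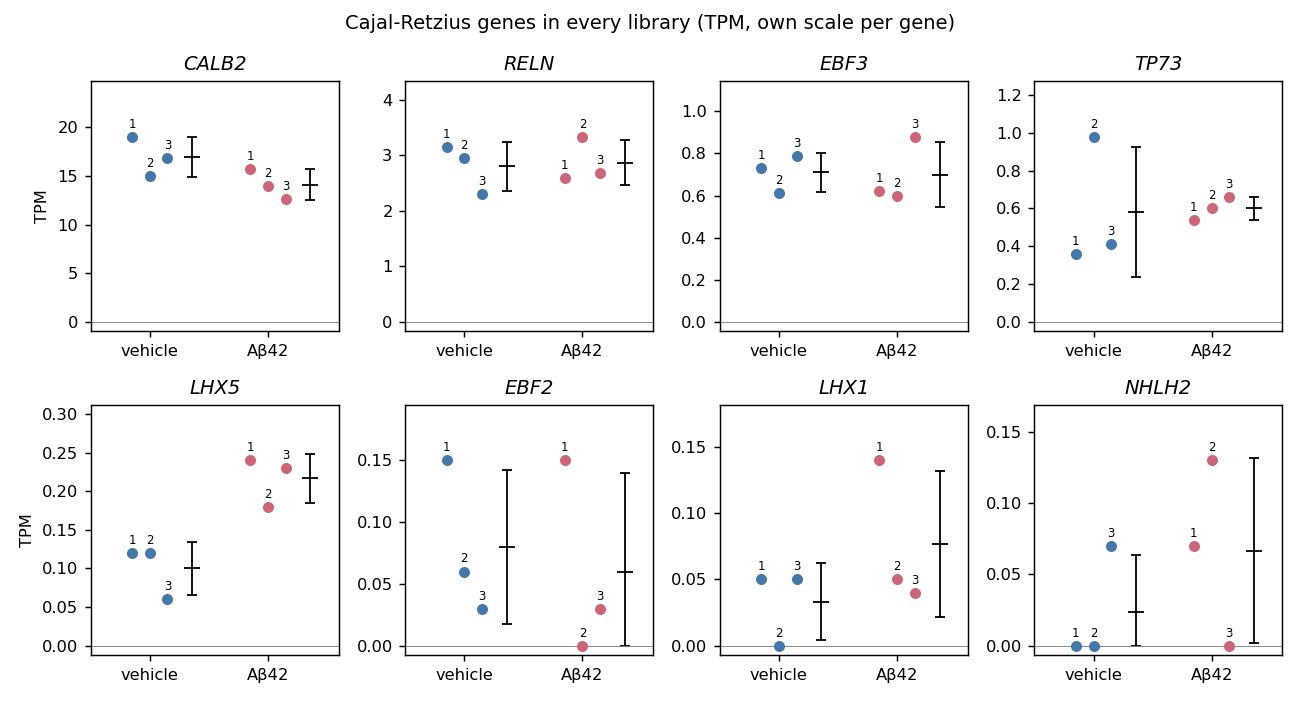
TPM of each of the 8 genes in the vehicle (blue) and Aβ42 (red) libraries, each gene on its own linear scale, with the replicate number above each point and the mean with SD (n = 3, bar cut at 0) beside it. The groups overlap in every gene but LHX5, whose values (0.06 to 0.12 TPM against 0.18 to 0.24 TPM) rest on 1 to 4 counts per library.

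Exposure to Aβ42 was compared with vehicle by edgeR's quasi-likelihood test over the 13842 genes that passed a filter on low counts. RELN, CALB2, EBF3 and TP73 passed that filter and the other 4 genes did not. None of the 4 tested genes passed an adjusted p-value of 0.05, where 0% of all tested genes did, and none had an unadjusted p-value under 0.05, where 23.9% of all tested genes did. Groups overlapped in all 4, against 27% of tested genes whose groups did not overlap. The median log2 fold change of the 4 was 0.02, beside 0.0032 for all tested genes. With the replicate number as a block, a fit in which 14.2% of tested genes passed, the 4 still did not, with adjusted p-values from 0.299 to 0.987. Pairing by number was taken from the data alone, where number 2 alone stood apart from pairs of different numbers.

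RELN encodes reelin, the secreted glycoprotein that defines these cells, and lies on the minus strand of chromosome 7 (GRCh38.p14, chr7:103471789-103989658). In vehicle replicates 1 to 3 it was at 3.15, 2.95 and 2.31 TPM, and in Aβ42 replicates 1 to 3 at 2.59, 3.34 and 2.68 TPM, from 179 to 270 counts per library. The lowest value was vehicle replicate 3 and the highest Aβ42 replicate 2, and the other 4 libraries lay where the ranges of the groups overlap. Mean CPM of RELN was 13.2 ± 2.10 for vehicle and 13.9 ± 1.86 for Aβ42 (SD, n = 3 each). The log2 fold change was 0.07 ± 0.14 (SE, adjusted p-value 0.766 by edgeR's quasi-likelihood test), with a 95% interval of -0.22 to 0.37, so a change within those bounds could not be told from no change. Counting error alone at the mean count was 6.66%, below the 13.4% coefficient of variation over the 6 libraries.

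The 250 bases before the annotated start of RELN (RefSeq, GRCh38.p14, chr7:103989659-103989908, minus strand) are shown because the promoter of the gene that names the cell type is a CpG-dense one. Capitals mark each CG.
RELN: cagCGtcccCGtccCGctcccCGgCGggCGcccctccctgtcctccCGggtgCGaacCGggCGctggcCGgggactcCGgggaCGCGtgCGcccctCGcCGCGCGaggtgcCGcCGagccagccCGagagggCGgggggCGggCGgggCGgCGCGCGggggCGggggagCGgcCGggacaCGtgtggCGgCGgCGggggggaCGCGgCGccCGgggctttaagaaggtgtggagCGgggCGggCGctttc
It holds 43 CG dinucleotides, more than 99.0% of the 35116 windows of that length in the RefSeq table hold, whose median is 11. The corresponding window of EBF3 holds 46 and that of the outer NHLH2 start holds 0.

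CALB2 encodes calretinin, a calcium-binding protein of Cajal-Retzius cells and of many interneurons, on the plus strand of chromosome 16 (GRCh38.p14, chr16:71358723-71390433). Its level was 19.06, 14.97 and 16.89 TPM in vehicle replicates 1 to 3 and 15.76, 14.0 and 12.62 TPM in Aβ42 replicates 1 to 3. Vehicle replicate 2 lay below Aβ42 replicate 1, so the groups overlapped by that library. Mean CPM of CALB2 was 7.88 ± 1.04 for vehicle and 6.795 ± 0.70 for Aβ42 (SD, n = 3 each), and the log2 fold change was -0.21 ± 0.14 (SE, adjusted p-value 0.379, edgeR's quasi-likelihood test), with a 95% interval of -0.53 to 0.10. It was the 1 tested gene of the 4 whose fold change kept its sign in all 16 alternatives, between -0.30 and -0.11, and it passed in none. Although CALB2 exceeded RELN by 5.48 times in TPM, it had fewer counts, 103 to 149 per library, a difference between the scales that comes from the correction for length.

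EBF3 and EBF2 belong to the early B-cell factors, transcription factors of differentiating neurons and of mesenchymal lineages. EBF3 (chr10:129835233-129964274, minus strand) had 0.73, 0.61 and 0.79 TPM in vehicle and 0.62, 0.60 and 0.88 TPM with Aβ42, replicates 1 to 3, from 18 to 25 counts per library. In TPM both extremes came from the Aβ42 group, while the lowest count was that of vehicle replicate 2. Its log2 fold change was 0.01 ± 0.26 (adjusted p-value 0.984, edgeR's quasi-likelihood test), with a 95% interval of -0.57 to 0.59, and it changed sign on both TPM scales and without vehicle replicate 2 or Aβ42 replicate 3. EBF2 had 5, 2 and 1 counts in vehicle and 5, 0 and 1 counts with Aβ42. The summed counts were 8 and 6, a ratio of 0.744 with an exact 95% counting interval of 0.213 to 2.44. Among the paralogs, EBF4 was at 16.2 to 21.6 TPM and EBF1 at 0.06 to 0.28 TPM, so that EBF4 was the family member with the highest level in each library.

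TP73 encodes p73, a transcription factor that Cajal-Retzius cells need for survival and that also drives the multiciliated cell programme. The gene lies on the plus strand of chromosome 1 (GRCh38.p14, chr1:3652516-3736201). It was at 0.36, 0.98 and 0.41 TPM in vehicle replicates 1 to 3 (11, 32 and 13 counts) and at 0.54, 0.60 and 0.66 TPM in Aβ42 replicates 1 to 3 (17, 19 and 22 counts). Vehicle replicate 2 stood above the other 5 libraries, and the other 2 vehicle libraries stood below all 3 Aβ42 libraries. The log2 fold change was 0.04 ± 0.40 (adjusted p-value 0.962, edgeR's quasi-likelihood test), with a 95% interval of -0.84 to 0.91. Without vehicle replicate 2 it was 0.67 (adjusted p-value 0.411), and without vehicle replicate 1 or 3 it was -0.24 and -0.16. The value for TP73 thus rested on that library.

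The same library had high summed markers of multiciliated cells and of choroid plexus, the secretory epithelium next to the cortical hem. FOXJ1, CCNO and MCIDAS, which drive the multiciliated fate, summed to 1.61, 5.85 and 2.17 TPM in vehicle replicates 1 to 3 and to 0.90, 4.10 and 1.13 TPM in Aβ42 replicates 1 to 3. TTR, AQP1 and KL of choroid plexus summed to 7505 TPM in vehicle replicate 2 and 6619 TPM in Aβ42 replicate 2, against 2817 to 3934 TPM in the other 4 libraries. Nearly all of this was TTR, at 7487 TPM in vehicle replicate 2 and 6581 TPM in Aβ42 replicate 2. AQP1 was highest in Aβ42 replicate 2 (37.56 TPM) but lower in vehicle replicate 2 (17.42 TPM) than in vehicle replicate 1 (21.6 TPM). KL was highest in vehicle replicate 2 (0.44 TPM). Aβ42 replicate 2 was thus high for both sums of 3 markers, while its TP73 was at 0.60 TPM. Over the whole list, the 10 multiciliated genes summed to 51.0, 66.4 and 56.3 TPM in vehicle replicates 1 to 3. In Aβ42 replicates 1 to 3 they summed to 46.4, 51.7 and 44.8 TPM, so Aβ42 replicate 2 was below vehicle replicate 3 there. RFX3 was the largest part of each sum, at 34.48 TPM in vehicle replicate 3 and 30.07 TPM in Aβ42 replicate 2. FOXJ1 was at 2.03 TPM in vehicle replicate 3 and 2.81 TPM in Aβ42 replicate 2. The 9 choroid plexus genes summed to 3383 to 7622 TPM in vehicle and 2860 to 6687 TPM with Aβ42, again nearly all of it TTR. In vehicle replicate 1 CCNO was listed at 0 TPM, and in vehicle replicate 3 MCIDAS was. The part of these cells in the TP73 counts was not tested.

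**Figure D2:**
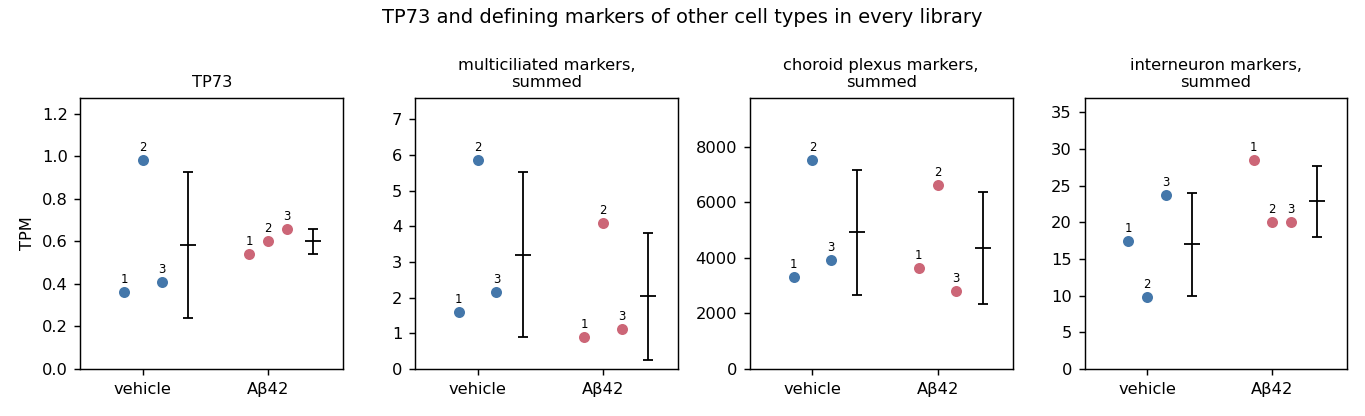
TPM of TP73 and summed TPM of 3 multiciliated markers (FOXJ1, CCNO, MCIDAS), 3 choroid plexus markers (TTR, AQP1, KL) and 8 interneuron markers (GAD1, GAD2, SLC32A1, DLX1, DLX2, DLX5, DLX6, LHX6) in each library, with replicate numbers and mean with SD (n = 3). Vehicle replicate 2 is highest for TP73 (0.98 TPM) and for the first 2 marker sums, and lowest for the interneuron sum (9.76 TPM).

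A gene-level count of TP73 adds transcripts from an outer start and from starts inside the gene, which give proteins with and without the activating end. The 250 bases before the outer start (RefSeq, GRCh38.p14, chr1:3652266-3652515, plus strand) and before the next start inside the gene (chr1:3690422-3690671) are shown because the table cannot tell their products apart. Capitals mark each CG.
TP73 outer start: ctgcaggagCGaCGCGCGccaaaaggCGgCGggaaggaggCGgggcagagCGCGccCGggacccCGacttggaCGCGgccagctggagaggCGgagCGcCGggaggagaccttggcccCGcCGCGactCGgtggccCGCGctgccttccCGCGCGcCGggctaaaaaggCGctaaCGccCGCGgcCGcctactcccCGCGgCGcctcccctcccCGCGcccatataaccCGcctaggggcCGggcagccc
TP73 inner start: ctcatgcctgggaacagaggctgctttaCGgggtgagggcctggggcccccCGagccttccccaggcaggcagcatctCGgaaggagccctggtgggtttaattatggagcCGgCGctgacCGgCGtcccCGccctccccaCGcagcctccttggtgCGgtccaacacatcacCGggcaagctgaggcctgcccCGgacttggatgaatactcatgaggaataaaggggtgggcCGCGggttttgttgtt
The outer window holds 38 CG dinucleotides and the inner 14. A search of the 7 windows that RefSeq gives for RELN, EBF3, TP73 and NHLH2 found TAATTA, a core that LIM homeodomain proteins such as LHX1 and LHX5 bind, in the inner TP73 window alone, where 4.35% of all windows hold it. CAGCTG, an E-box of the kind bound by NHLH proteins, was in the outer TP73 window and in 1 NHLH2 window, and 14.0% of all windows hold it. Each motif reads the same on both strands, and none of the 7 windows held both.

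LHX5 and LHX1 are LIM homeodomain factors of the cortical hem and of Cajal-Retzius cells. LHX5 (chr12:113462033-113471871, minus strand) had 2, 2 and 1 counts in vehicle replicates 1 to 3 and 4, 3 and 4 counts in Aβ42 replicates 1 to 3, or 0.12, 0.12 and 0.06 TPM against 0.24, 0.18 and 0.23 TPM. It was the 1 gene of the 8 whose groups did not overlap, higher with Aβ42, where 13.6% of tested genes were higher without overlap. The summed counts were 5 and 11, a ratio of 2.18 with an exact 95% counting interval of 0.699 to 8.01, which includes 1. An exact permutation test of CPM, two-sided, gave p = 0.1, the smallest that 3 libraries against 3 allow. Without the filter on low counts edgeR's quasi-likelihood test gave LHX5 an adjusted p-value of 0.444 (log2 fold change 1.07). LHX1 had 1, 0 and 1 counts in vehicle and 3, 1 and 1 counts with Aβ42, sums of 2 and 5 with a ratio of 2.48 and an interval of 0.406 to 26.03. In GRCh38 annotation (GENCODE release 29) exons of LHX5, LHX1, TP73 and EBF3 overlap those of a gene on the other strand, LHX5-AS1 and TP73-AS1 among them. Whether the counting used strand is not given in the sources used here, so reads from such partners cannot be told apart from reads of these genes.

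NHLH2, a basic helix-loop-helix factor of newborn neurons, had 0, 0 and 1 counts in vehicle and 1, 2 and 0 counts with Aβ42. Its summed counts of 1 and 3 gave a ratio of 2.97 with an exact counting interval of 0.239 to 156. A count of 0 allows up to 3 counts, or 0.178 to 0.183 CPM in these libraries. At this depth the counts of LHX1, EBF2 and NHLH2 bound a difference only loosely, as their wide counting intervals show. The 4 untested genes together had 8, 4 and 4 counts in vehicle and 13, 6 and 6 counts with Aβ42.

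Relatives of several of these factors were at higher levels. LHX2, the LIM homeodomain selector of cortex, was at 164.1 to 188.1 TPM, while LHX1 and LHX5 did not exceed 0.24 TPM. NHLH1, the close relative of NHLH2, was at 6.18 to 13.8 TPM, while TP63, at 0.09 to 0.36 TPM, did not exceed TP73 (0.36 to 0.98 TPM). Of the 16 paralogs, LHX8 and ISL1, factors of ventral forebrain neurons, had 0 counts in every library. Of the 9 tested paralogs 0 passed and 2, NHLH1 and LMX1A, were lower with Aβ42 at an unadjusted p-value under 0.05, where 11.5% of all tested genes were.

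**Figure D3:**
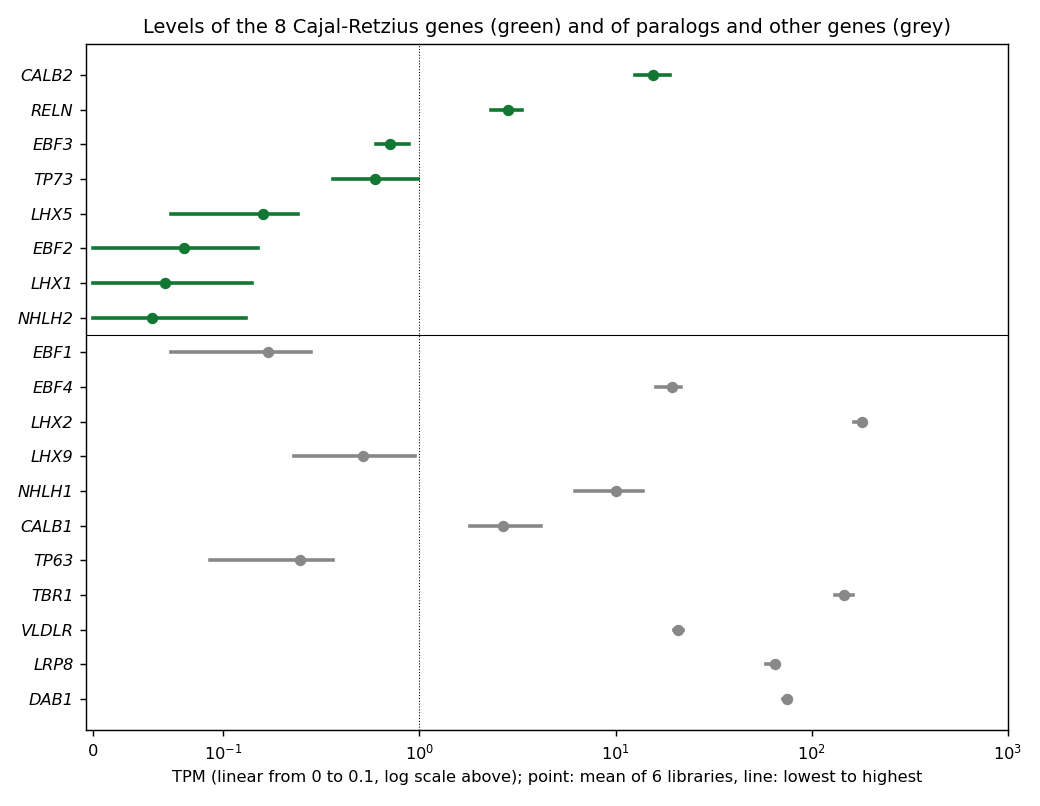
Mean TPM over the 6 libraries (point) and range from lowest to highest library (line) for the 8 listed genes (green) and for paralogs, TBR1, reelin receptors and DAB1 (grey), on an axis that is linear from 0 to 0.1 TPM and logarithmic above. Of the green genes, CALB2 and RELN lie right of the dotted line at 1 TPM, while LHX2 and TBR1 lie above 100 TPM.

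Of 12 other genes known from Cajal-Retzius cells, 9 were tested, 2 with a positive and 7 with a negative log2 fold change. Their median was -0.18, beside 0.0032 for all tested genes, and 0.07 without vehicle replicate 2. Of the 9, 0 passed an adjusted p-value of 0.05, and 3 had an unadjusted p-value under 0.05, all lower with Aβ42 (11.5% of tested genes were). With the replicate block the 3 passed: NHLH1, TBR1 and SLC17A6, against 7.05% of tested genes passing as lower. NHLH1 was at 12.0, 13.8 and 12.9 TPM in vehicle replicates 1 to 3 and 6.18, 9.03 and 6.88 TPM in Aβ42 replicates 1 to 3. The highest Aβ42 value lay below the lowest vehicle value. Its log2 fold change was -0.76 ± 0.14, with an adjusted p-value of 0.0684 by edgeR's quasi-likelihood test and of 0.000875 with the block. SLC17A6, the vesicular glutamate transporter that Cajal-Retzius cells use, was at 9.85, 14.6 and 11.4 TPM for vehicle and 6.45, 9.67 and 7.95 TPM for Aβ42, a log2 fold change of -0.53 (adjusted p-value 0.117, 0.00216 with the block). TBR1, which deep-layer neurons express as well, was at 152.0 to 162.5 TPM in vehicle and 131.6 to 138.8 TPM with Aβ42, a log2 fold change of -0.18 (adjusted p-value 0.0734, 0.0203 with the block). NDNF, a secreted factor of Cajal-Retzius cells and of some interneurons, was at 2.87, 3.77 and 1.96 TPM in vehicle and 1.91, 4.58 and 1.05 TPM with Aβ42, with the number 2 libraries highest in both groups. Its log2 fold change of -0.20 ± 0.50 (adjusted p-value 0.835) turned to 0.07 when vehicle replicate 2 was left out and 0.16 when Aβ42 replicate 3 was, and was -0.85 with Aβ42 replicate 2 left out. EBF1, at 2 to 9 counts per library, was not tested.

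Downstream of reelin, the receptors and the adaptor were present at many times the level of the ligand's own transcript and none of the 3 named here passed. VLDLR was at 22.1, 21.0 and 20.6 TPM in vehicle and 20.0, 20.9 and 20.1 TPM with Aβ42 (log2 fold change -0.02, 95% interval -0.14 to 0.10, adjusted p-value 0.827 by edgeR's quasi-likelihood test). LRP8 was at 64.2, 68.1 and 67.1 TPM and 65.5, 66.2 and 58.6 TPM (-0.11, interval -0.23 to 0.0083, adjusted p-value 0.237), and without Aβ42 replicate 2, where 23.1% of 13960 tested genes passed, its adjusted p-value was 0.0355 (log2 fold change -0.16), while leaving out Aβ42 replicate 3 gave -0.06. DAB1 was at 78.4, 75.1 and 74.9 TPM and 71.8, 76.6 and 72.1 TPM (-0.0070, interval -0.11 to 0.10, adjusted p-value 0.941), and its estimated counts were not whole in every library. In each of the 3 genes the groups overlapped.

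Over all 28 reelin receptor and signalling genes, 0 passed and the median log2 fold change was -0.06, beside 0.0032 for all tested genes. Of them 6 had an unadjusted p-value under 0.05, all lower with Aβ42, where 11.5% of tested genes were, and 9 were lower without overlap, where 13.4% of tested genes were. The 3 with the smallest p-values were EFNB2, a membrane ligand of Eph receptors (549.1 ± 20.1 and 480.8 ± 32.9 CPM, log2 fold change -0.19), SRC, a kinase that can phosphorylate DAB1 (89.4 ± 3.25 and 78.1 ± 6.32 CPM, -0.20), and PIK3R1, a regulatory subunit of PI3 kinase (184.3 ± 17.2 and 163.2 ± 2.91 CPM, -0.18), means ± SD with n = 3 each. Their adjusted p-values were 0.0974, 0.115 and 0.138, and with the block 0.0227, 0.032 and 0.0435, the 3 genes of the list that then passed. Without vehicle replicate 2 the log2 fold change of PIK3R1 was -0.10.

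Of 6 proteases that cut reelin, 5 were tested and 0 passed; 2 had an unadjusted p-value under 0.05, both higher with Aβ42 (12.4% of tested genes were). ADAMTS4 was at 0.48, 0.27 and 0.46 TPM in vehicle and 0.67, 0.66 and 0.59 TPM with Aβ42, with no overlap (log2 fold change 0.79 ± 0.28, adjusted p-value 0.134, 0.042 with the block). ADAMTS2 was at 2.18, 1.59 and 1.89 TPM and 3.86, 2.24 and 2.55 TPM (0.65 ± 0.26, 0.171, 0.0137 with the block, in which 7.12% of tested genes passed as higher), a log2 fold change that was 0.31 without Aβ42 replicate 1. ADAMTS3, the main inactivating protease of reelin in the developing cortex, was at 4.68 to 5.52 TPM in vehicle and 3.25 to 5.80 TPM with Aβ42.

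**Figure D4:**
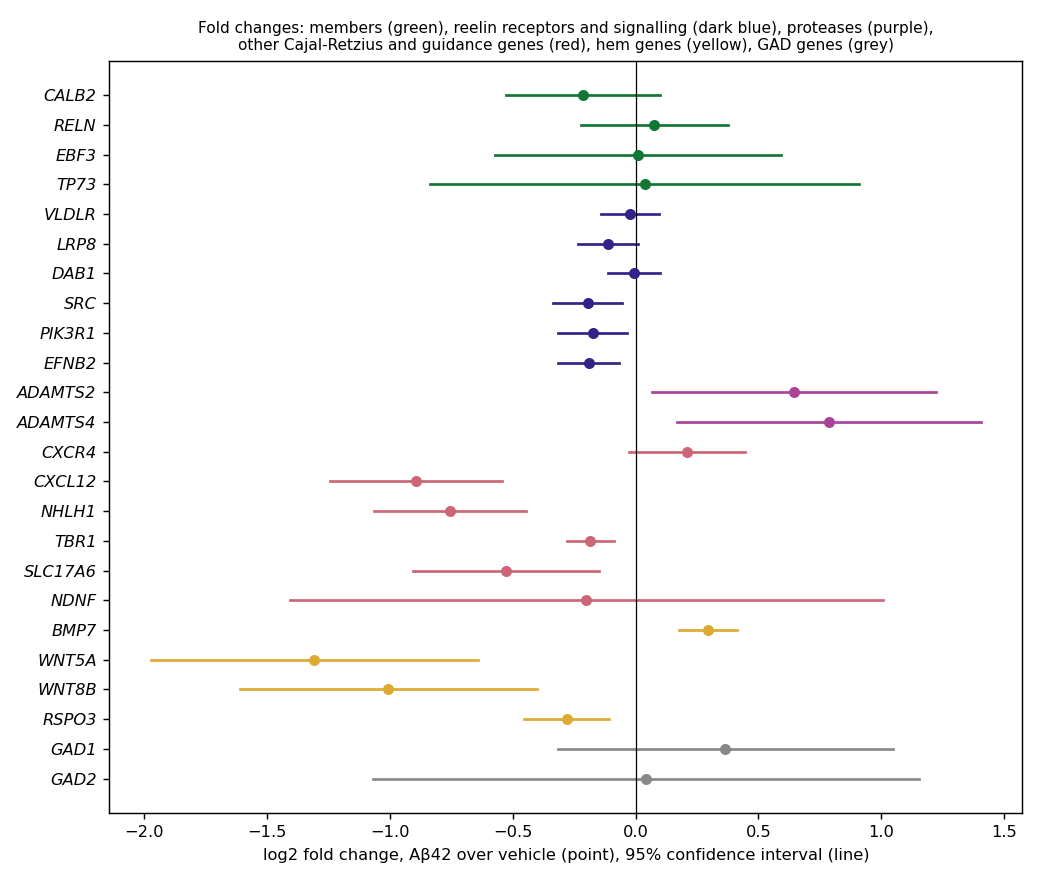
Log2 fold change of Aβ42 over vehicle (point) with its 95% confidence interval (line) from edgeR's quasi-likelihood fit, for the 4 tested listed genes and for genes of the reelin pathway, its proteases, guidance, the cortical hem and interneurons. The intervals of RELN, CALB2, EBF3 and TP73 all cross 0. Without correction for the number of genes, those of CXCL12, NHLH1, TBR1, SLC17A6, EFNB2, SRC, PIK3R1, WNT5A, WNT8B and RSPO3 lie below 0. Those of BMP7, ADAMTS2 and ADAMTS4 lie above 0, likewise without correction.

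None of the 3 genes of chemokine guidance passed. CXCL12, the meningeal chemokine that holds Cajal-Retzius cells at the surface, was at 13.5, 21.0 and 17.0 TPM in vehicle replicates 1 to 3 and 7.39, 8.61 and 10.3 TPM in Aβ42 replicates 1 to 3. Every Aβ42 library lay below every vehicle library. The log2 fold change was -0.89 ± 0.16 (adjusted p-value 0.0684 by edgeR's quasi-likelihood test, 0.000397 with the block), from -1.01 to -0.75 over the alternatives. CXCR4, its receptor, was at 31.2, 24.9 and 31.8 TPM in vehicle and 32.4, 32.0 and 33.7 TPM with Aβ42. These groups did not overlap, and the log2 fold change of 0.21 (adjusted p-value 0.26) was 0.10 without vehicle replicate 2. ACKR3, the scavenging receptor, was at 7.33 to 8.39 and 6.34 to 7.20 TPM (adjusted p-value 0.467). Vehicle replicate 2, the highest for CXCL12, also had the highest sum of meningeal and mesenchymal markers. In that library DCN gave most of the sum, at 22.29 TPM. PDGFRA was highest in vehicle replicate 1 (1.82 TPM) and PDGFRB in Aβ42 replicate 3 (8.95 TPM). The 11 genes of that list summed to 21.4, 34.7 and 19.1 TPM in vehicle and 15.2, 20.2 and 16.1 TPM with Aβ42, so the sums overlapped. Of the 5 tested, 2 had a positive and 3 a negative log2 fold change. Among those named after their values were seen, PDGFRB, of pericytes, was higher without overlap (7.79 and 8.55 TPM, adjusted p-value 0.212), and DCN, a fibroblast matrix gene, had means of 13.6 and 5.84 TPM with overlap (log2 fold change -1.17, adjusted p-value 0.263, 2.28e-06 with the block). Their part in the CXCL12 values was not tested.

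Among 20 genes of the cortical hem and the other sources, 18 were tested and 0 passed; 1 was higher and 6 were lower at an unadjusted p-value under 0.05, beside 12.4% and 11.5% of all tested genes. The median log2 fold change was -0.25, beside 0.0032 over all tested genes, with 7 positive and 11 negative. With the block 1 passed as higher and 6 as lower, beside 7.12% and 7.05% of all tested genes. WNT8B, a Wnt ligand of the hem, was at 6.49, 6.89 and 6.11 TPM in vehicle and 2.21, 4.88 and 2.28 TPM in Aβ42 replicates 1 to 3 (log2 fold change -1.01 ± 0.27, adjusted p-value 0.0856, 0.00494 with the block). WNT5A, also of the hem, was at 1.73, 2.35 and 1.31 TPM and 0.58, 1.05 and 0.53 TPM (-1.31 ± 0.30, 0.0734, 0.000761 with the block), and its log2 fold change was -0.70 on the log2(TPM + 1) scale. RSPO3, a secreted enhancer of Wnt signalling, was at 40.0 ± 3.62 and 32.9 ± 1.75 CPM (-0.28, 0.0891, 0.0124 with the block). BMP7 was the gene that was higher, at 70.1 ± 3.56 and 86.0 ± 1.94 CPM (0.29, 0.0684, 0.0025 with the block), and its estimated counts were not whole in every library. LMX1A, a hem and roof plate factor, had a log2 fold change of -0.71 (0.169, 0.0433 with the block), with overlapping groups. The number 2 libraries, in which the summed choroid plexus markers were high, had the highest WNT5A and WNT8B of their group. RSPO2, named after its values were seen, passed with the block alone (log2 fold change -1.22, adjusted p-value 0.299, 0.00167 with the block). The part of choroid plexus or hem tissue in these values was not tested.

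Interneurons are another forebrain source of RELN and CALB2. GAD1, which makes the transmitter GABA, was at 3.88, 1.59 and 2.71 TPM in vehicle and 3.51, 2.28 and 3.88 TPM in Aβ42 replicates 1 to 3 (log2 fold change 0.36 ± 0.31, adjusted p-value 0.486), and GAD2 at 0.18 to 0.98 and 0.45 to 0.70 TPM (0.04 ± 0.50, 0.964). The value for GAD1 ran from 0.10 without vehicle replicate 2 to 0.65 without vehicle replicate 1. Vehicle replicate 2 was the lowest of the 6 for both, and for RELN it was the second of the vehicle libraries. Of 18 interneuron markers 10 were tested and 0 passed, and the list summed to 531.3 to 615.0 TPM in vehicle and 464.9 to 593.9 TPM with Aβ42, most of it NPY (398.1 to 563.2 TPM). Of the 10 tested, 8 had a positive log2 fold change (median 0.23), and the 8 defining markers GAD1, GAD2, SLC32A1, DLX1, DLX2, DLX5, DLX6 and LHX6 summed to 9.76 to 23.8 TPM in vehicle and 20.1 to 28.45 TPM with Aβ42, with overlap. VIP was listed at 0 TPM in 5 libraries and SST in 4. PROX1, a factor of caudal interneurons, was the 1 marker with an unadjusted p-value under 0.05 (log2 fold change 0.74, adjusted p-value 0.113, 0.0215 with the block), and leaving out Aβ42 replicate 1 brought this log2 value to 0.43. The part of interneurons in the RELN and CALB2 counts was not tested.

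Of the remaining tissues, hindbrain, cerebellum and midbrain, which use EBF or LHX factors, had markers at low levels. Of 18 hindbrain, cerebellar and midbrain markers 12 were found in the table, and they summed to 0.94 to 1.35 TPM in vehicle and 1.44 to 2.73 TPM with Aβ42; SKOR2, of Purkinje cells, had 0 counts in every library. EN2 was the 1 tested, at 0.56, 0.24 and 0.53 TPM and 2.11, 0.78 and 1.53 TPM (log2 fold change 1.75 ± 0.43, adjusted p-value 0.0734, 0.00148 with the block). Of the 11 meningeal and mesenchymal markers 5 were tested and 0 passed. COL1A1, a collagen gene of fibroblasts, was at 0.28 to 0.73 TPM, and DCN at 4.3 to 22.29 TPM. Multiciliated markers (8 tested) and choroid plexus markers (8 tested) also had 0 passing genes, where 0% of all tested genes passed. With the block 1 multiciliated and 2 choroid plexus markers passed as lower, where 7.05% of tested genes did. SLC4A5, a choroid plexus bicarbonate transporter, was the 1 with an unadjusted p-value under 0.05 (log2 fold change 0.28, adjusted p-value 0.178). Cortical excitatory markers, 11 of 11 tested and 0 passing, had 3 positive and 8 negative log2 fold changes (median -0.14). Of them 4 were lower at an unadjusted p-value under 0.05, where 11.5% of tested genes were. Without overlap 5 were lower, where 13.4% of tested genes were. They included SOX5 (log2 fold change -0.29, adjusted p-value 0.0856) and NEUROD2 (-0.17, 0.0986), which passed with the block at 0.00591 and 0.0385. With the block FEZF2, FOXJ1, CLIC6 and OTX2 also passed, at 0.00558, 0.0145, 0.000309 and 0.00612, FEZF2 as higher and the others as lower. These 4 are named after their values were seen. Without Aβ42 replicate 2, 3 of the other Cajal-Retzius genes, 4 of the reelin genes, 7 of the hem genes and 5 of the excitatory genes passed as lower, where 11.6% of tested genes did. As higher, 1 reelin gene, 1 hem gene, 2 proteases, 1 interneuron marker and EN2 passed in that fit, where 11.5% of tested genes did, and 1 protease, 2 paralogs, CXCL12 and 1 multiciliated marker passed as lower.

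The genes whose levels ran most like RELN over the 6 libraries, among 10288 with a mean of at least 10 CPM, were LZTS2 (Pearson's r = 0.989 on log2 CPM), CHKB (0.973) and C1QBP (0.969). These likenesses are descriptions over libraries that share line and batch. They are the highest of 10288 values from only 6 libraries and were not tested against chance. The other 7 listed genes lay under that level and were not compared. LZTS2 followed RELN from 22.6 CPM in vehicle replicate 3 to 27.8 CPM in Aβ42 replicate 2.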

How the data were processed

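RNA from 6 organoid libraries (3 vehicle, 3 Aβ42) was sequenced from polyadenylated RNA with a stranded kit, per the labels' protocols. The authors deposited 1 table that gives, for every gene, an estimated count and a TPM for each library. Its header calls the former read counts, yet 86.9% to 87.5% of a library's values were whole; all counts of the 8 genes were. The submitters' processing notes name GRCh38, FastQC, STAR 2.7.11b and featureCounts 2.0.6, with no role or order.

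Counts were rounded, filtered with filterByExpr (13842 genes), scaled by TMM and compared with the robust quasi-likelihood test of edgeR 4.0.16 (R 4.3.3) without a block; p-values are two-sided and adjusted by the Benjamini-Hochberg method over all genes tested, with a threshold of 0.05. SE is the size of the log2 fold change over the square root of F. The fit was tested on simulated data. Alternatives used limma 3.58.1, DESeq2 1.42.0 and other scalings and filters. Replicate numbers were taken to pair libraries, from the data alone: deviations from group means correlated at 0.181, 0.388 and 0.129 for numbers 1, 2 and 3 (12186 genes), against -0.302 to 0.177 for pairs of different numbers, 2 of which (0.177 and 0.154) exceeded number 3, so that number 2 alone stood apart. Ratios of summed counts have exact binomial intervals; these and the floor of 3 counts cover counting error only, as no molecular identifiers are mentioned.

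The listed genes and the other gene lists were chosen with earlier results of these data known. Named besides the 8 genes were a fixed set of 12, of which 1 is not reported here, and, from each other list, up to 3 genes with the smallest p-value under 0.05 in each direction; other genes are given as levels, except ACKR3 and those said to be named after their values were seen. Promoter windows are from RefSeq (GRCh38.p14), with entries for RELN, EBF3, TP73 and NHLH2.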

Additional observations from a re-analysis of the deposited data

How the results depend on the processing

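RELN, CALB2, EBF3 and TP73 passed in none of 16 alternatives (DESeq2 gave EBF3 and TP73 no adjusted p-value), nor did any of the 8 listed genes in the 1 that tested them all, without a filter on low counts. Among all genes the count moved from 0 (3302 at an unadjusted p-value under 0.05) to 360 without a filter, 804 with the DESeq2 Wald test, 2457 with limma-voom and quality weights and 1962 with the replicate block. Leaving out one library gave 0 to 3224 genes, with calls only without Aβ42 replicate 2. The cause was not tested. RELN ran from -0.0448 to 0.177 in log2 fold change when one library was left out, with reversed signs without vehicle replicate 3 (-0.0448) or Aβ42 replicate 2 (-0.0392). EBF3 ran from -0.131 to 0.0853 and was -0.0110 under log2(TPM + 1), -0.0289 under log2(TPM + 0.1), -0.08 without vehicle replicate 2 and -0.131 without Aβ42 replicate 3. TP73 ran from -0.24 to 0.67, with -0.24, -0.16 and -0.06 without vehicle replicate 1, vehicle replicate 3 and Aβ42 replicate 3. Signs near 0 also turned for VLDLR (-0.0446 to 0.0177 over the libraries left out), DAB1 (-0.0316 to 0.0217, and 0.0081 under upper-quartile scaling), NDNF (-0.85 to 0.16) and GAD2 (-0.39 to 0.78). The replicate block changed no call of the 4 tested genes. Depth limits LHX1, LHX5, EBF2 and NHLH2, which had at most 5 counts in a library.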
